A study of Mus musculus with 15 samples.

Results

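Prostate epithelial cell lines of FVB mice that carry c-myc were compared directly with lines that carry v-src, with no control array in the contrast. The comparison used the 6 arrays titled for Myc and Src overexpression, 3 for each gene, out of 15 arrays in the series, and covered 19938 genes with a probe set of their own. Both groups derive from primary cultures of ventral prostate epithelium into which the oncogene was transduced, and both were grown as established lines in DMEM with fetal bovine serum, received no further treatment and were harvested near confluence. They therefore share tissue, strain, medium and transduction, and differ by label in the oncogene alone. The age of the animals, the vector, its promoter and the way lines were selected are details the sources used here do not give. The series text speaks of 3 lines per oncogene, but no label ties an array to a line, so each p-value reflects how these samples scatter, which may be technical in part. Differences between the oncogenes and differences between individual lines cannot be told apart. The other 9 arrays (control cultures, NeuT lines and Ras lines, 3 each) entered only the estimate of the spread.

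Myc is a transcription factor that pairs with Max, binds E-box sequences and is known for raising genes of ribosome production, nucleotide synthesis and cell division. Src is a membrane-bound tyrosine kinase that acts at focal adhesions and below growth factor receptors and integrins; v-src is its viral form, which lacks the regulatory tail that keeps the cellular kinase inactive. In the prostate gland, basal epithelial cells express Trp63, Krt5 and Krt14 and rest on the basement membrane, while luminal cells express Krt8 and Krt18 and secrete prostatic fluid.

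In outline, the Src arrays were higher in basal epithelial markers (Trp63, Krt5, Dsg3, Pdpn), in Cav1 and Snai2, in the single matrix protein genes Tgfbi, Tnc and Thbs1 (Fn1 was higher in Myc), in Mmp13 and Il33, and in glutathione and detoxification genes (Gpx2, Gsta3). The Myc arrays were higher in the claudins Cldn6 and Cldn7, in the glutamine carriers Slc38a1 and Slc1a5, and, by smaller steps, in many genes of cholesterol synthesis, nucleotide synthesis, ribosome biogenesis and mitosis. For Cav1 and Tnc the controls were near the Src level, and for Slc38a1 and Cldn7 near the Myc level. All differences below are log2 expression in Myc minus log2 expression in Src, with the standard error from the limma fit, so a negative value means a higher level in Src.

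Of the 19938 genes, 619 (3.1%) were called, that is, differed 2-fold or more with an adjusted p under 0.05. Of these, 273 (1.37%) were higher in Myc and 346 (1.74%) were higher in Src, and in all 619 the 3 arrays of one group lay above the 3 of the other. Over all genes, the 3 Myc arrays lay above the 3 Src arrays in 19.9% and below them in 19.2%. The differences toward Src were larger. At least 4-fold was reached by 110 genes higher in Src and by 37 higher in Myc, and the median called difference was -1.58 toward Src and 1.27 toward Myc. Without the fold minimum the balance ran the other way, with 2268 genes (11.4%) higher in Myc and 1509 (7.57%) higher in Src. Lists of genes are read below against these shares of 11.4% and 7.57% and against the all-gene median of -0.03.

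Arrays of one oncogene resembled each other closely. Across genes, r ran from 0.9938 to 0.9958 between Myc arrays and from 0.9943 to 0.9955 between Src arrays, and from 0.9681 to 0.9713 between a Myc and a Src array. A pair of Myc arrays had 15 to 31 genes at least 2-fold apart and a pair of Src arrays 3 to 10, whereas a Myc and a Src array had 649 to 779. Under the same call rule, Myc and NeuT lines differed in 463 genes, NeuT and Src in 709, and Ras lines in 1094 to 1227 from any other line, so the Myc and Src lines lay between these values. Among the 346 genes higher in Src, the Src mean was the highest of the 4 oncogene groups for 250 and the Myc mean the lowest for 173. Among the 273 higher in Myc, the Myc mean was the highest for 170 and the Src mean the lowest for 177. Over all 19938 genes the Src mean was the highest for 6528 and the lowest for 3684, and the Myc mean the highest for 4217 and the lowest for 4494. The counts for called genes use the arrays that chose the genes and are given as a description. Detection above background was not measured. The lower group lay under 6.47, the median of all gene values, in 196 of the 346 genes and in 98 of the 273, and the size of those differences is unsure. Over all genes the lower of the Myc and Src means lay under that level in 10466 of 19938. One control, array 3, carried kidney transcripts that the other 2 lacked, among them Kap, a kidney androgen-regulated protein, at 12.10 against 4.78 and 4.83. The Myc and Src arrays read 4.55 to 4.92 for Kap. Without that array in the spread, 278 genes were called higher in Myc and 355 higher in Src.

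The transduced genes were examined first as a check of the labels. Myc read 8.81, 8.60 and 8.94 in the Myc arrays and 10.53, 10.29 and 10.60 in the Src arrays, so the arrays labelled Myc had the lower level, with no overlap (log2 difference -1.69 ± 0.19, adjusted p = 2.81e-05). The control cultures read 9.92, 9.82 and 9.38. The reading of this probe set thus goes against the label, and the group names below rest on the titles of the arrays. Src read 7.06, 6.95 and 7.15 in the Myc arrays and 7.08, 7.07 and 7.10 in the Src arrays, and the groups overlapped (log2 difference -0.03 ± 0.09, adjusted p = 0.88). Erbb2, the receptor gene from which NeuT derives, read 8.02, 7.96 and 7.99 in the Myc arrays and 7.89, 7.96 and 7.90 in the Src arrays (log2 difference 0.07 ± 0.13, adjusted p = 0.771). Whether these probe sets read the introduced copies is not given in the sources used here, and no probe set is named for Hras here.

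The 12 largest differences toward Src included cell surface, matrix, signalling and immune genes. These 12, and the 12 toward Myc below, were chosen among genes whose Myc and Src arrays did not overlap. Pdpn, which encodes podoplanin, a mucin-type glycoprotein of basal epithelium, read 6.09, 5.88 and 5.66 in the Myc arrays and 10.89, 10.89 and 10.95 in the Src arrays, a 32.7-fold difference (log2 difference -5.03 ± 0.16, adjusted p = 1.15e-10). Cav1, the coat protein of caveolae and a classical Src substrate, read 5.41, 5.51 and 5.20 in the Myc arrays and 10.21, 10.26 and 10.35 in the Src arrays (29.9-fold; log2 difference -4.90 ± 0.21, adjusted p = 1.7e-09). The Cav1 levels of the controls (8.99 to 9.46), NeuT (9.92 to 9.93) and Ras arrays (9.14 to 10.26) were near those of Src, so the Myc arrays were the ones that stood low. Snai2, the zinc finger repressor Slug, read 6.12, 5.93 and 5.81 in the Myc arrays and 10.21, 10.06 and 10.27 in the Src arrays (log2 difference -4.23 ± 0.13, adjusted p = 1.15e-10), with the controls in between at 8.50 to 8.80. For these 3 genes every Src array lay above every Myc array by more than 3 log2 units. The Pdpn levels of the controls (9.31 to 9.69) and Ras arrays (11.18 to 11.35) were nearer Src, and those of the NeuT arrays (5.38 to 6.12) were near Myc.

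Tmem45a, a transmembrane protein gene, had the largest difference toward Src and read 5.02, 4.97 and 4.63 in the Myc arrays and 10.27, 10.02 and 10.25 in the Src arrays (log2 difference -5.31 ± 0.35, adjusted p = 1.18e-07). Ptprz1, a receptor-type tyrosine phosphatase, read 4.31, 4.39 and 4.58 in the Myc arrays and 9.21, 9.22 and 9.25 in the Src arrays (log2 difference -4.80 ± 0.23, adjusted p = 4.85e-09). Tnc encodes tenascin C, an extracellular matrix glycoprotein, and read 5.56, 5.52 and 5.25 in the Myc arrays and 10.13, 9.95 and 10.10 in the Src arrays (log2 difference -4.62 ± 0.17, adjusted p = 5.22e-10). The Myc and Src groups were far apart in each. The controls were low for Tmem45a (5.77 to 6.08) and Ptprz1 (4.51 to 4.84) but near Src for Tnc (9.47 to 10.17). For Tnc the NeuT arrays (11.07 to 11.30) were also high, and the Ras arrays (6.45 to 7.07) were low as the Myc arrays were. Among the rest, Serpinb10 (an intracellular serine protease inhibitor) differed by -4.79 ± 0.19, Vsnl1 (a calcium sensor of neurons) by -4.55 ± 0.23, Car13 (a carbonic anhydrase) by -4.38 ± 0.21 and Arhgdib by -4.22 ± 0.17. Their adjusted p-values lay between 7.42e-10 and 6.76e-09. The controls were nearer Myc for Serpinb10 (4.10 to 4.96) and Vsnl1 (6.51 to 7.42). They were nearer Src for Car13 (9.04 to 9.58) and Arhgdib (9.87 to 9.88). The Ras arrays were high for Car13 (9.85 to 10.44) and Arhgdib (11.11 to 11.80), and the NeuT arrays were low for Arhgdib (5.0 to 5.52). Mmp13 and Il33 complete the 12 and are described with their families.

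**Figure D1:**
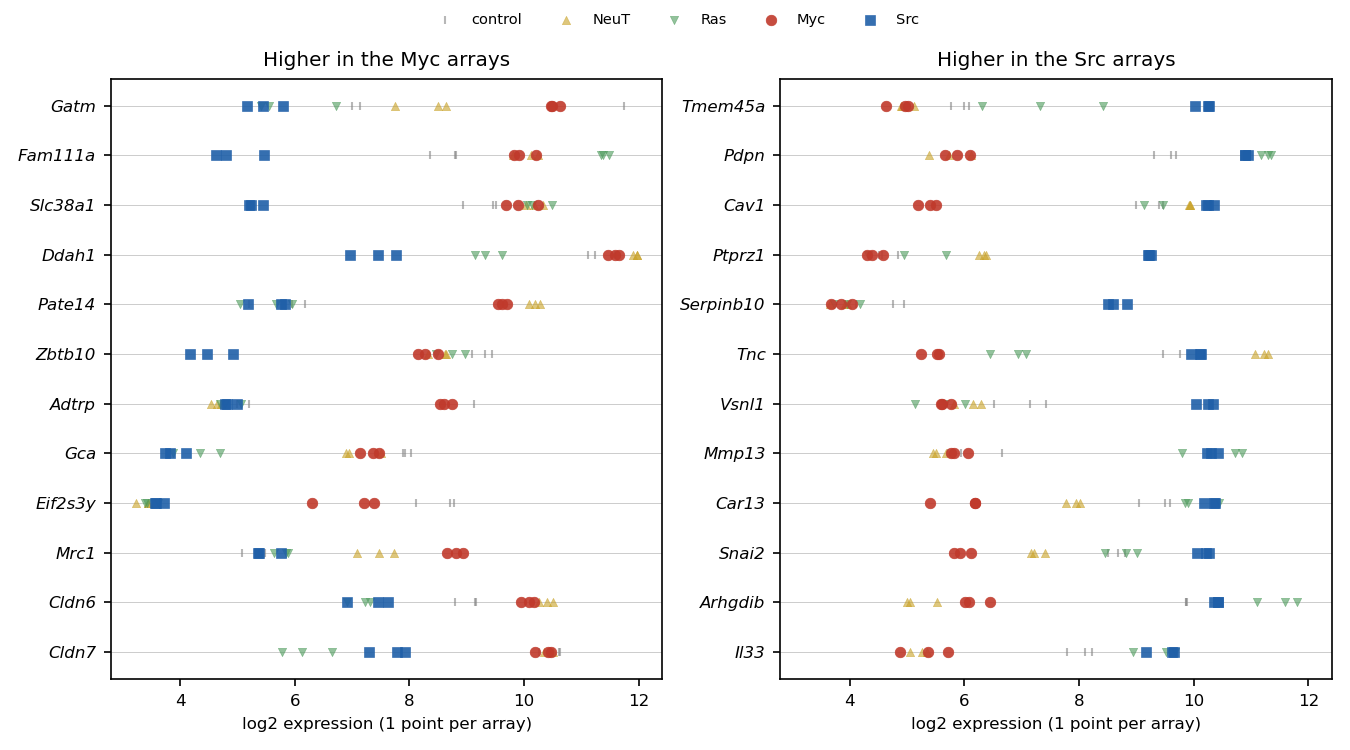
Log2 expression (x axis, 1 point per array) of the 12 genes with the largest difference in each direction, for control, NeuT, Ras, Myc and Src arrays, with genes on the y axis. Lack of overlap between Myc points (red circles) and Src points (blue squares) was required in choosing the 24 genes. For Cav1 the Myc arrays (5.20 to 5.51) lie below all other groups.

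Toward Myc, the 12 largest differences fell on genes of varied roles. Slc38a1, a sodium-coupled glutamine carrier, read 9.88, 10.24 and 9.68 in the Myc arrays and 5.44, 5.23 and 5.20 in the Src arrays (25-fold; log2 difference 4.65 ± 0.17, adjusted p = 4.51e-10). Its 2 probe sets gave 4.52 and 4.65. The control (8.94 to 9.51), NeuT (10.04 to 10.33) and Ras arrays (10.06 to 10.49) were also high for Slc38a1. The Src arrays were thus the ones that stood low. Fam111a, a protease known for restricting the replication of some viruses, read 10.20, 9.91 and 9.82 in the Myc arrays and 5.46, 4.63 and 4.80 in the Src arrays (log2 difference 5.02 ± 0.19, adjusted p = 5.56e-10). The Ras (11.34 to 11.47), NeuT (9.81 to 10.24) and control arrays (8.36 to 8.81) were all high for Fam111a, so here the Src arrays were the ones that stood low. Gatm, which makes the creatine precursor guanidinoacetate, read 10.63, 10.49 and 10.47 in the Myc arrays and 5.17, 5.79 and 5.44 in the Src arrays (log2 difference 5.06 ± 0.89, adjusted p = 0.00103). Control array 3, with its kidney transcripts, read 11.74 for Gatm against 7.14 and 7.0 in the other controls, and all 15 arrays share 1 standard error. With only the 6 Myc and Src arrays it was 0.14 and the adjusted p was 9.22e-09.

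Ddah1, which degrades asymmetric dimethylarginine, read 11.45, 11.59 and 11.65 in the Myc arrays and 7.77, 7.45 and 6.96 in the Src arrays (log2 difference 4.17 ± 0.18, adjusted p = 1.69e-09). Adtrp, named for its androgen dependence and its regulation of tissue factor pathway inhibitor, read 8.61, 8.53 and 8.74 in the Myc arrays and 4.78, 4.81 and 4.99 in the Src arrays (log2 difference 3.77 ± 0.73, adjusted p = 0.00214; standard error 0.09 with the 6 arrays alone). Mrc1, the mannose receptor best known from macrophages, read 8.81, 8.93 and 8.65 in the Myc arrays and 5.75, 5.38 and 5.37 in the Src arrays (log2 difference 3.30 ± 0.16, adjusted p = 5.33e-09). Every Myc array was above every Src array for these 3 genes, as the rule that chose them required. Pate14, of the prostate and testis expressed family, differed by 4.02 ± 0.25, Zbtb10 (a zinc finger gene) by 3.79 ± 0.18 and Gca (grancalcin, a calcium-binding protein) by 3.44 ± 0.19, with adjusted p-values between 4.83e-09 and 5.65e-08. The controls lay above the Myc arrays for Zbtb10 (9.08 to 9.45) and Gca (7.89 to 8.02) and near them for Ddah1 (11.12 to 11.59). The Ras arrays were high for Zbtb10 (8.45 to 8.97) and low for Gca (3.88 to 4.69). The NeuT arrays were above the Myc arrays for Pate14 (10.09 to 10.28), between Myc and Src for Mrc1 (7.09 to 7.73) and low for Adtrp. The controls were low for Pate14 (5.21 to 6.17) and Mrc1 (5.08 to 5.49). The Y-linked gene Eif2s3y and the claudins Cldn6 and Cldn7 make up the 12.

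The basal epithelial program was higher in Src. Of 21 measured basal markers, 15 passed the test toward Src and 0 toward Myc, and their median difference was -1.58. Trp63, the transcription factor that defines basal cells, read 5.85, 6.21 and 6.10 in the Myc arrays and 9.58, 9.51 and 9.66 in the Src arrays (11.5-fold; log2 difference -3.53 ± 0.12, adjusted p = 2.8e-10). The controls lay between the groups at 7.55 to 8.05. Krt5, the type II keratin of basal cells, read 9.40, 9.29 and 8.99 in the Myc arrays and 12.19, 12.13 and 12.25 in the Src arrays (log2 difference -2.96 ± 0.14, adjusted p = 4.85e-09), with controls at 10.58 to 11.21. Its partner Krt14 read 10.91, 10.98 and 10.91 in the Myc arrays and 12.05, 12.0 and 12.11 in the Src arrays, a smaller step of -1.12 ± 0.15 (adjusted p = 0.000124). For all 3 genes the order of the group means was Myc, control, Src.

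Other basal keratins followed in the same direction, with differences of -2.82 for Krt17, -2.32 for Krt6a, -1.64 for Krt15 and -0.62 for Krt6b. Krt15 varied within the Src group, at 8.18, 7.08 and 8.09, and the controls were higher still at 9.87 to 10.37. Cdh3, the placental cadherin of basal cells, differed by -1.75 ± 0.22. Members that did not pass were Krt16, Itgb4, Lama3, Dst, Sfn and Jag2. Over the whole keratin family, tallied after values were seen, 7 of 52 genes were higher in Src and 2 in Myc, the latter being Krt8 and Krt80 (1.39). Averaged over the marker list, the Myc arrays read 7.42 to 7.61, the controls 8.59 to 9.08 and the Src arrays 9.13 to 9.24. In these bulk samples, fewer basal-type cells and less RNA of these genes per cell cannot be told apart.

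Adhesion structures of basal and stratified epithelium also passed toward Src, in part. Of 12 desmosome genes, 5 were higher in Src and 1 in Myc. Dsg3, a desmosomal cadherin of basal layers, read 7.05, 7.06 and 6.80 in the Myc arrays and 9.58, 9.43 and 9.65 in the Src arrays (log2 difference -2.58 ± 0.18, adjusted p = 2.47e-07), and its companion Dsc3 differed by -2.78 ± 0.19 (adjusted p = 1.39e-07). Jup, the plaque protein plakoglobin, differed by -0.94 ± 0.15 (adjusted p = 0.000405). Pkp2, the plakophilin of simple epithelia, was the exception toward Myc and read 8.48, 8.24 and 8.33 in the Myc arrays and 6.92, 7.0 and 7.04 in the Src arrays (log2 difference 1.36 ± 0.11, adjusted p = 1.06e-06). Desmosomal genes that are not limited to basal layers, Dsp and Dsg2, gave -0.90 ± 0.35 (adjusted p = 0.0963) and 0.14 ± 0.16 (adjusted p = 0.622). Among 17 hemidesmosome and laminin genes, 3 were higher in Src and 2 in Myc. The 3 were Col17a1, a collagen of hemidesmosomes (log2 difference -1.58 ± 0.11, adjusted p = 3.1e-07), Itga6, the laminin-binding alpha6 integrin (log2 difference -1.18 ± 0.17, adjusted p = 0.000199), and Lamb3, a chain of laminin-332 (log2 difference -0.95 ± 0.16, adjusted p = 0.000765). Lamb1, a chain of other laminins, was higher in Myc by 0.40 ± 0.09.

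Luminal markers were split, with more of them higher in Src. Of 17 measured, 1 was higher in Myc (5.88%, all genes 11.4%) and 4 were higher in Src (23.5%, all genes 7.57%), with a median of -0.11. Averaged over the list, the Myc arrays read 7.54 to 7.58, the Src arrays 7.84 to 7.90 and the controls 8.47 to 8.99. Krt8, the keratin of simple epithelia, read 12.28, 12.48 and 12.40 in the Myc arrays and 11.42, 11.41 and 11.44 in the Src arrays (log2 difference 0.96 ± 0.10, adjusted p = 1.38e-05), and the controls were above both at 12.78 to 12.95. Its partner Krt18 read 11.51, 11.65 and 11.51 in the Myc arrays and 10.55, 10.42 and 10.55 in the Src arrays, without overlap, yet missed the threshold in the shared fit (log2 difference 1.05 ± 0.68, adjusted p = 0.338). With the 6 arrays alone the standard error fell to 0.08 and the adjusted p was 1.28e-05. The 4 genes of the list higher in Src were Psca, Tspan8, Pigr and Cd9. Psca, prostate stem cell antigen, read 6.19, 5.97 and 5.88 in the Myc arrays and 9.33, 9.12 and 9.59 in the Src arrays (log2 difference -3.33 ± 0.17, adjusted p = 6.98e-09), and Tspan8, a tetraspanin, differed by -1.88 ± 0.44 (adjusted p = 0.00738). Pigr, the transporter of polymeric immunoglobulins, differed by -0.72 and the tetraspanin Cd9 by -0.39. Pbsn, probasin, the defining secretory gene of the rodent prostate, was low in both groups at 3.07, 3.12 and 3.12 in the Myc arrays and 3.17, 3.20 and 3.29 in the Src arrays. Hoxb13, a homeobox gene of prostatic epithelium, read 6.80, 6.57 and 7.08 in the Myc arrays and 6.79, 6.74 and 6.93 in the Src arrays, and the groups overlapped.

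Several tight junction genes were higher in Myc. Of 22 tight and adherens junction genes, 7 were higher in Myc and 2 in Src. Cldn6, a claudin of embryonic epithelium, read 10.17, 9.95 and 10.09 in the Myc arrays and 7.45, 7.62 and 6.91 in the Src arrays (6.69-fold; log2 difference 2.74 ± 0.17, adjusted p = 4.65e-08). Cldn7, a claudin of simple and ductal epithelia, read 10.47, 10.41 and 10.20 in the Myc arrays and 7.78, 7.29 and 7.93 in the Src arrays (6.45-fold; log2 difference 2.69 ± 0.20, adjusted p = 3.66e-07). Control arrays read 10.26 to 10.62 for Cldn7, close to Myc, and 8.79 to 9.15 for Cldn6, between the groups. Smaller differences toward Myc were found for Cldn3 (1.06), for the tetraspan proteins occludin (Ocln, 1.01) and tricellulin (Marveld2, 1.18), for the adhesion molecule Epcam (0.72) and for the polarity gene Pard6b (0.68). The 2 genes higher in Src both serve adherens junctions, namely Nectin1 (-1.03) and Ctnnd1, p120 catenin (-1.03). Cdh1, E-cadherin itself, read 9.51, 9.53 and 9.70 in the Myc arrays and 9.99, 9.83 and 9.99 in the Src arrays (log2 difference -0.36 ± 0.13, adjusted p = 0.0765). It passed toward Src on the 6 arrays alone (adjusted p = 0.0148), on the 12 oncogene arrays (0.0317), with array weights (0.00389), after quantile normalization (0.0351) and without control array 3 (0.0216), with a log2 difference between -0.42 and -0.32 over all alternatives. Over the whole claudin family, looked up after these values were seen, 4 of 28 genes (14.3%) were higher in Myc and 0 in Src. The share toward Myc was near the 11.4% of all genes. The family median was -0.06, and 18 of the 28 had the higher mean in Src, so the family as a whole did not lean toward Myc.

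The list of 19 epithelial splicing and transcription regulators, which takes in Mal2 though it is neither, had 2 higher in Myc and 3 in Src. The 3 became 6 on the 6 arrays alone (with or without the replicate block), on the 12 oncogene arrays, with array weights and without control array 3. Mal2, a transcytosis protein of polarized epithelium, read 10.05, 10.14 and 9.68 in the Myc arrays and 8.44, 8.94 and 8.19 in the Src arrays (log2 difference 1.43 ± 0.18, adjusted p = 5.97e-05), and the repressor Ovol1 differed by 0.56. Toward Src the differences were small, among them the ETS factor Ehf at -0.65. The splicing factors Esrp1 and Esrp2 and the factor Grhl2 did not pass, at -0.16 ± 0.15 (adjusted p = 0.54), 0.15 ± 0.11 (adjusted p = 0.39) and -0.34 ± 0.14 (adjusted p = 0.11).

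**Figure D2:**
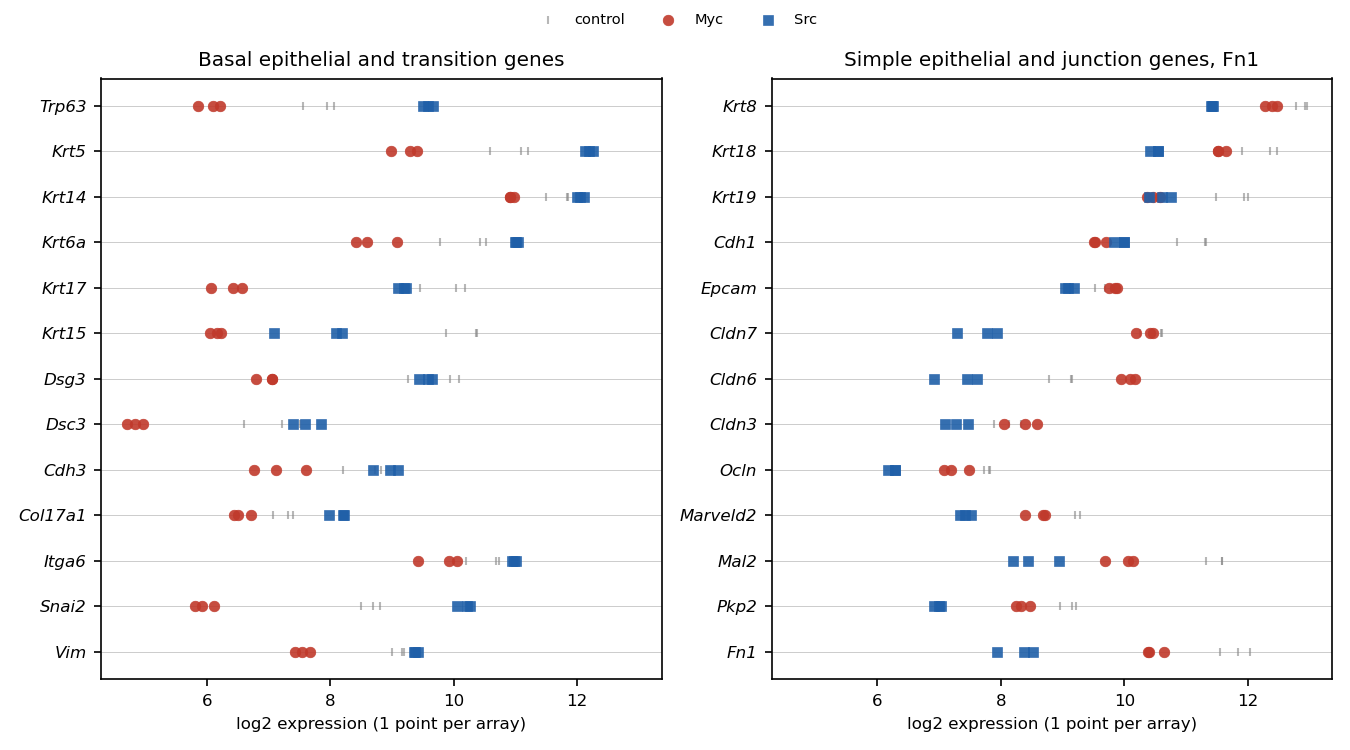
Log2 expression (x axis, 1 point per array) of basal epithelial and transition genes (left) and of simple epithelial and junction genes with Fn1 (right) in control, Myc and Src arrays. For Trp63 the Myc arrays (5.85 to 6.21), controls (7.55 to 8.05) and Src arrays (9.51 to 9.66) form separate bands, and for Cldn7 the Src arrays (7.29 to 7.93) lie below the other groups.

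Genes of the epithelial to mesenchymal transition were split. Of 25, 7 were higher in Src and 3 in Myc, with a median of -0.12. Besides Snai2 and Tnc, those higher in Src were Vim, the intermediate filament vimentin, at 7.43, 7.67 and 7.54 in the Myc arrays and 9.35, 9.38 and 9.42 in the Src arrays (log2 difference -1.84 ± 0.09, adjusted p = 8.55e-09), the matrix protein gene Sparc (log2 difference -2.33 ± 0.13, adjusted p = 1.91e-08), the transcription factor genes Twist1 (-1.38) and Twist2 (-0.45), and Wnt5a (-0.88). Fn1, fibronectin, went the other way and read 10.39, 10.65 and 10.39 in the Myc arrays and 8.38, 8.52 and 7.93 in the Src arrays (4.6-fold; log2 difference 2.20 ± 0.29, adjusted p = 9.31e-05). The controls were above both at 11.55 to 12.04. Foxc2, a forkhead factor gene, was also higher in Myc (log2 difference 1.80 ± 0.31, adjusted p = 0.000933), as was the receptor tyrosine kinase gene Axl (0.53). Snai1, Zeb1, Zeb2 and Cdh2 did not pass, at -0.03 ± 0.09 (adjusted p = 0.853), 0.05 ± 0.13 (adjusted p = 0.844), 0.14 ± 0.31 (adjusted p = 0.82) and -0.12 ± 0.10 (adjusted p = 0.487), and neither did the 7 listed fibrillar and type VI collagen genes.

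Markers of other cell types gave few differences. Of 15 fibroblast markers, 1 was higher in Myc and 2 in Src, each under 1 log2 unit. The defining genes Pdgfra and Dcn did not pass, at -0.33 ± 0.15 (adjusted p = 0.168) and 0.08 ± 0.27 (adjusted p = 0.887), with Dcn at 5.22 to 5.41 in the Myc and 5.0 to 5.47 in the Src arrays. In the smooth muscle list, 2 of 12 genes were higher in Src, namely Acta2, smooth muscle actin, at 6.07, 6.06 and 6.2 in the Myc arrays and 8.62, 8.70 and 8.48 in the Src arrays (log2 difference -2.49 ± 0.26, adjusted p = 1.35e-05), and the tropomyosin gene Tpm2 (log2 difference -1.43 ± 0.16, adjusted p = 2.76e-05). The defining contractile genes Myh11 and Cnn1 gave 0.04 ± 0.07 (adjusted p = 0.775) and -0.04 ± 0.29 (adjusted p = 0.95). Of 12 endothelial markers 1 was higher in Myc, and of 14 neuroendocrine markers 2 were higher in Myc and 1 in Src, the last being the growth cone gene Gap43 (log2 difference -2.46 ± 0.18, adjusted p = 3.81e-07). Of 14 leukocyte markers, 0 were higher in Myc and 2 in Src, Coro1a (-0.35) and Aif1 (-0.47). Aif1 lost its call without Myc array 1 or 2 or Src array 1 or 3 (adjusted p between 0.0571 and 0.0875). Ptprc, the pan-leukocyte gene CD45, read 4.82, 4.75 and 4.81 in the Myc arrays and 4.71, 4.79 and 4.89 in the Src arrays. The macrophage gene Adgre1 read 4.51, 4.54 and 4.54 in the Myc arrays and 4.54, 4.54 and 4.45 in the Src arrays. Differences of the 14 leukocyte markers ran from -0.47 to 0.53. The source of the higher Mrc1 of the Myc arrays was not tested.

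All 3 measured Y-linked genes were higher in Myc. Eif2s3y, a translation initiation factor subunit, read 6.30, 7.20 and 7.38 in the Myc arrays and 3.71, 3.56 and 3.59 in the Src arrays (log2 difference 3.34 ± 0.23, adjusted p = 1.67e-07). Uty, a histone demethylase homologue, read 5.30, 5.52 and 5.41 in the Myc arrays and 4.09, 4.35 and 4.24 in the Src arrays (log2 difference 1.19 ± 0.14, adjusted p = 4.74e-05) and Kdm5d, a histone demethylase, 5.42, 6.41 and 6.24 in the Myc arrays and 4.49, 4.59 and 4.54 in the Src arrays (log2 difference 1.48 ± 0.23, adjusted p = 0.000413). Control arrays read 8.11 to 8.77 for Eif2s3y, NeuT arrays 3.23 to 3.45 and Ras arrays 3.40 to 3.61. These values move with the comparison of Myc and Src in the same arrays as every gene described here, and their part in the other differences was not tested.

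Many TGF-beta ligands and response genes were higher in Src. Of 23, 11 passed toward Src and 1 toward Myc, with a median of -0.47. Tgfbi, a secreted matrix protein named for its induction by TGF-beta, read 6.2, 6.33 and 6.37 in the Myc arrays and 9.51, 9.50 and 9.80 in the Src arrays (9.84-fold; log2 difference -3.30 ± 0.10, adjusted p = 1.15e-10). Thbs1, thrombospondin 1, an activator of latent TGF-beta, read 9.35, 9.25 and 9.09 in the Myc arrays and 11.37, 11.44 and 11.44 in the Src arrays (log2 difference -2.19 ± 0.20, adjusted p = 3.85e-06). The ligand gene Tgfb2 read 5.93, 5.96 and 5.99 in the Myc arrays and 7.50, 7.95 and 7.83 in the Src arrays (log2 difference -1.80 ± 0.15, adjusted p = 1.82e-06). Smaller differences were measured for the ligand genes Tgfb1 (-0.65), Tgfb3 (-0.59), Bmp2 (-0.89) and Bmp7 (-0.67). Fst, the activin antagonist follistatin, differed by -2.68 ± 0.26 (adjusted p = 7.1e-06) and Ltbp2, a latent TGF-beta binding protein, by -0.64. Of the inhibitors of differentiation, Id2 (-1.53) and Id1 (-0.53) were higher in Src and Id3 (0.54) was the one list member higher in Myc. The receptors Tgfbr1 and Tgfbr2 and the feedback gene Smad7 did not pass, at 0.23 ± 0.16 (adjusted p = 0.378), 0.17 ± 0.10 (adjusted p = 0.271) and -0.09 ± 0.09 (adjusted p = 0.583).

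Among genes of adhesion sites and direct Src substrates, single members differed widely. Of 26, 7 were higher in Src and 3 in Myc, with a median of -0.07. After Cav1, the largest were Tns4, a short tensin of focal adhesions, at 7.74, 7.93 and 7.83 in the Myc arrays and 10.02, 9.88 and 10.05 in the Src arrays (log2 difference -2.15 ± 0.17, adjusted p = 9.68e-07), and Sh3pxd2a, which encodes the Src substrate Tks5 of invadopodia, at 9.23, 9.56 and 9.35 in the Myc arrays and 11.10, 11.19 and 11.23 in the Src arrays (log2 difference -1.79 ± 0.11, adjusted p = 7e-08). The 2 probe sets of Sh3pxd2a gave -1.79 and -0.73, so the size of its difference depends on the probe set, and both passed (adjusted p = 0.00119 for the smaller). With the brighter probe set of Sh3pxd2a, the Src arrays were above the Myc arrays in both genes without overlap. Sh3pxd2b (-0.50), the adaptor paxillin (Pxn, -0.37) and zyxin (Zyx, -0.36) followed. Toward Myc were the Src family kinase gene Fyn (0.62), Ptk2b (0.41) and Tns3 (0.29). Csk, the kinase that inactivates Src, and the substrate genes Bcar1 and Cttn gave 0.33 ± 0.12 (adjusted p = 0.0661), -0.03 ± 0.11 (adjusted p = 0.913) and -0.09 ± 0.12 (adjusted p = 0.709).

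In the caveola list, 4 of 10 genes were higher in Src and 1 in Myc. Cav2, the partner of Cav1, differed by -0.71 ± 0.11 and the coat gene Cavin1 by -0.69 ± 0.11 (adjusted p = 0.000433 and 0.000644), far less than the -4.90 ± 0.21 of Cav1. Cavin4 was higher in Myc by 0.59. Of 18 integrin genes, 5 were higher in Src and 1 in Myc. Itgb6, the subunit of the TGF-beta activating integrin alpha-v beta6, read 7.65, 7.67 and 7.45 in the Myc arrays and 8.90, 8.97 and 8.88 in the Src arrays (log2 difference -1.33 ± 0.11, adjusted p = 1.31e-06), and its alpha partner Itgav differed by -0.55. Itgb5 (-0.65) and Itgb1 (-0.27) were also higher in Src, and Itga5, the fibronectin receptor subunit, was higher in Myc (0.46) as Fn1 was.

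Targets of YAP and TEAD, which respond to cell density and tension, went both ways. Of 22, 6 were higher in Myc (27.3%, all genes 11.4%) and 7 were higher in Src (31.8%, all genes 7.57%). The 7 became 4 without Myc array 1 or Src array 3. Ankrd1, a standard YAP reporter gene, read 9.90, 10.21 and 10.09 in the Myc arrays and 8.21, 8.48 and 7.62 in the Src arrays (log2 difference 1.96 ± 0.24, adjusted p = 5.19e-05) and Ccn1 differed by 1.22 ± 0.16 (adjusted p = 8.26e-05), both toward Myc, while the third widely used reporter Ccn2 gave 0.31 ± 0.17 (adjusted p = 0.243). Dock5 (1.11) and Wwc1 (0.83) were also higher in Myc. Toward Src were Igfbp3, a binding protein of insulin-like growth factors (log2 difference -1.63 ± 0.12, adjusted p = 5.59e-07), and Rbms3, an RNA-binding protein (log2 difference -2.30 ± 0.22, adjusted p = 5.69e-06).

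In the Wnt pathway 7 of 26 genes were higher in Src (4 without Src array 2 or 3) and 3 in Myc. The receptor gene Fzd7 read 6.84, 7.13 and 6.75 in the Myc arrays and 8.86, 8.56 and 8.77 in the Src arrays (log2 difference -1.82 ± 0.13, adjusted p = 2.72e-07), and Fzd6 differed by -0.83 in the same direction. The feedback genes Axin2 (-0.45) and Rnf43 (-0.34) were higher in Src and Znrf3 (0.61), Fzd2 (0.51) and Nkd2 (0.50) higher in Myc. Of 18 Notch pathway genes, 2 were higher in each group, all under 1 log2 unit, with the ligand gene Dll1 (-0.66) toward Src and the feedback gene Nrarp (0.75) toward Myc.

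Extracellular proteases did not move as one. Of 23 matrix protease and inhibitor genes, 7 were higher in Src and 3 in Myc. The 7 became 4 without Myc array 1 or 3 or without Src array 2 or 3. Mmp13, a collagenase, read 5.78, 5.82 and 6.06 in the Myc arrays and 10.31, 10.43 and 10.23 in the Src arrays (21.7-fold; log2 difference -4.44 ± 0.25, adjusted p = 2.25e-08), and the controls were at 5.95, 6.65 and 5.71. The Ras arrays, at 10.71, 9.79 and 10.83, were near Src, and the NeuT arrays (5.46 to 5.68) were low. The neighbours of Mmp13 in the metalloproteinase cluster of chromosome 9 gave smaller and less certain differences. Mmp3, stromelysin 1, read 5.80, 6.22 and 6.08 in the Myc arrays and 7.67, 7.14 and 7.54 in the Src arrays (log2 difference -1.42 ± 0.46, adjusted p = 0.0465), and its call was lost when any 1 of the 6 arrays was left out (adjusted p up to 0.142). Mmp10, stromelysin 2, read 7.40, 8.22 and 7.97 in the Myc arrays and 8.68, 8.63 and 8.57 in the Src arrays (log2 difference -0.76 ± 0.25, adjusted p = 0.0462), and its call was lost without any array but Myc array 2 (adjusted p up to 0.211). Mmp12 and Mmp7, from the same cluster, gave -0.16 ± 0.18 (adjusted p = 0.615) and -0.09 ± 0.12 (adjusted p = 0.669). Mmp14, the membrane-bound activator of other metalloproteinases, differed by -0.85 ± 0.15 (adjusted p = 0.000943).

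The promoters of these clustered genes hold a match to TGANTCA (N is any base), the pattern searched here for the transcription factor AP-1. They are printed to let the motif be compared between members that differed and members that did not pass. The sequences come from RefSeq on mouse build GRCm38.p6, run 5′ to 3′ on the strand of the gene, end before the start site and show the motif in capitals.
Mmp13, chr9:7272455-7272509, plus strand: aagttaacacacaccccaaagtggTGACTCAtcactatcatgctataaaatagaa
Mmp3, chr9:7445752-7445806, plus strand: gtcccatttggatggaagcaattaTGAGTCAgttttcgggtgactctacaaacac
Mmp10, chr9:7502255-7502309, plus strand: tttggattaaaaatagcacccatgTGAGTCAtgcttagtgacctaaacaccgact
Mmp12, chr9:7347306-7347360, plus strand: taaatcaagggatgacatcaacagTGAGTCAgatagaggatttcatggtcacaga
Mmp7, chr9:7692003-7692057, plus strand: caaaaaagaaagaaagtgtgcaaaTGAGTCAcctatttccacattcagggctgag
The first base of the motif lay 35 bases upstream of the start site in Mmp13, 46 in Mmp3, 63 in Mmp10, 44 in Mmp12 and 63 in Mmp7. Mmp13 holds TGACTCA and the other 4 hold TGAGTCA, so the motif is present in the gene with the largest difference, in both with small ones and in both that did not pass.

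Toward Myc in this list were Adamts1, a protease of proteoglycans, at 8.55, 8.87 and 8.35 in the Myc arrays and 6.74, 6.63 and 6.62 in the Src arrays (log2 difference 1.93 ± 0.13, adjusted p = 2.07e-07), the plasminogen activator gene Plau (log2 difference 1.03 ± 0.25, adjusted p = 0.0094) and the metalloproteinase inhibitor gene Timp1 (log2 difference 0.99 ± 0.14, adjusted p = 0.000164). Serpinb5, the epithelial serpin maspin, was higher in Src (log2 difference -1.27 ± 0.15, adjusted p = 4.23e-05). The receptor of Plau, Plaur, and the inhibitor gene Serpinb2 gave 0.06 ± 0.14 (adjusted p = 0.83) and 0.12 ± 0.32 (adjusted p = 0.857). The clade B serpins were looked up as a family after Serpinb10 had been seen. Of 24 measured, 7 were higher in Src and 0 in Myc, namely Serpinb10, Serpinb6b (-3.22), Serpinb1b (-2.38), Serpinb1a (-2.28), Serpinb8 (-1.84), Serpinb9 (-1.75) and Serpinb5. Several of these are close paralogs whose separate values are uncertain. Serpinb10, maspin and Serpinb2 lie on chromosome 1 and also hold a match to TGANTCA upstream, from the same source and build. Their matches, in capitals, have A as the middle base (TGAATCA), unlike those of the metalloproteinase genes above. The 3 are shown because Serpinb10 and maspin were higher in Src and Serpinb2 did not pass. Plaur, which did not pass either, holds TGACTCA upstream.
Serpinb10, chr1:107528925-107528979, plus strand: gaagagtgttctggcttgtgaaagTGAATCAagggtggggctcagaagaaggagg
Serpinb5, chr1:106861011-106861065, plus strand: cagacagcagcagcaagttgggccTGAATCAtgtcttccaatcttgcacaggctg
Serpinb2, chr1:107511305-107511359, plus strand: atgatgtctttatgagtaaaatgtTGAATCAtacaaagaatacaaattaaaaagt

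Across all genes, TGANTCA occurred in 6.9% of 19177 promoter windows of 300 bases (250 before and 50 after the start; both strands, since the motif reads the same on each). It occurred in 41 of 318 windows (12.9%, 95% exact binomial interval 9.41 to 17.1) of the called genes higher in Src and in 13 of 267 (4.87%, 2.62 to 8.18) of those higher in Myc. Among genes past the threshold with no fold minimum the shares were 8.47% and 4.46%. Matrix protease and inhibitor genes held it in 9 of 21 windows (42.9%, 21.8 to 66.0). The pattern takes any middle base, so TGAATCA counts with TGACTCA and TGAGTCA in all these shares. Genes with several start sites count more than once and some windows overlap, and a match is a description of letters and not of binding. The intervals cover counting error only.

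Several inflammatory genes were higher in Src, with exceptions among chemokines and colony stimulating factors. Il33, a nuclear alarmin of the interleukin 1 family, read 4.88, 5.36 and 5.72 in the Myc arrays and 9.62, 9.16 and 9.66 in the Src arrays (17.8-fold; log2 difference -4.16 ± 0.22, adjusted p = 1.31e-08). For Il33 the Ras arrays (8.94 to 9.67) were near Src, the NeuT arrays (5.04 to 5.36) near Myc and the controls (7.78 to 8.23) in between. The family had 5 of 13 genes higher in Src and 2 in Myc. Il1f9, which encodes interleukin 36 gamma, read 6.24, 7.36 and 8.61 in the Myc arrays and 10.44, 10.74 and 10.34 in the Src arrays (log2 difference -3.10 ± 0.40, adjusted p = 7.84e-05). The 3 Myc arrays spread over more than 2 log2 units for this gene, and Src array values were all above them. The receptor antagonist gene Il1rn (0.69) and the receptor gene Il18r1 (1.08) were higher in Myc. Il1a and Il1b did not pass, at -0.16 ± 0.20 (adjusted p = 0.652) and 0.10 ± 0.08 (adjusted p = 0.486).

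A similar spread within Myc appeared in S100a8 and S100a9, the calprotectin subunits made by activated keratinocytes and neutrophils. S100a9 read 6.37, 7.0 and 7.98 in the Myc arrays and 10.22, 9.68 and 10.28 in the Src arrays (log2 difference -2.95 ± 0.28, adjusted p = 4.82e-06). S100a8 read 6.51, 7.10 and 8.51 in the Myc arrays and 8.64, 8.64 and 8.63 in the Src arrays (log2 difference -1.26 ± 0.39, adjusted p = 0.0343), and its call was lost without Myc array 1 or 2 or any Src array (adjusted p up to 0.168). In Il1f9, S100a8 and S100a9 alike, Myc array 3 was the highest of its group and Myc array 1 the lowest. Of 15 S100 genes 3 were higher in Src and 0 in Myc, the other being S100a11 (-0.28).

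Genes of squamous differentiation gave 4 of 19 higher in Src and 1 in Myc. Dmkn, the keratinocyte protein dermokine, read 7.19, 7.83 and 7.68 in the Myc arrays and 10.52, 10.44 and 10.52 in the Src arrays (log2 difference -2.93 ± 0.17, adjusted p = 3.11e-08), and Ivl, the cornified envelope protein involucrin, 5.82, 6.25 and 6.24 in the Myc arrays and 7.90, 7.81 and 8.08 in the Src arrays (log2 difference -1.83 ± 0.28, adjusted p = 0.000311). Cstb, a cysteine protease inhibitor, differed by -0.36. Loricrin (Lor) and Krt10, of late differentiation, gave 0.28 ± 0.10 (adjusted p = 0.0647) and 0.24 ± 0.13 (adjusted p = 0.24). Of the 13 small proline-rich genes of the cornified envelope, taken as a family after values were seen, 7 were higher in Src and 0 in Myc. The 7 all belong to the Sprr2 group, with Sprr2d at 5.90, 6.03 and 7.18 in the Myc arrays and 9.48, 9.99 and 9.40 in the Src arrays (log2 difference -3.25 ± 0.27, adjusted p = 1.09e-06), but these copies are nearly identical and their separate values are uncertain. Sprr1a and Sprr3 gave -0.71 ± 0.32 (adjusted p = 0.145) and -0.18 ± 0.12 (adjusted p = 0.384).

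Among NF-kB targets 7 of 21 were higher in Src and 2 in Myc, with a median of -0.21. Ccl2, the monocyte chemoattractant, read 7.65, 7.43 and 7.43 in the Myc arrays and 10.47, 10.36 and 10.12 in the Src arrays (7.02-fold; log2 difference -2.81 ± 0.15, adjusted p = 1.19e-08). Tnf (-1.04), the adhesion molecule gene Icam1 (-0.99), the colony stimulating factor gene Csf2 (-0.96) and the feedback inhibitors Tnfaip3 (-0.82) and Nfkbia (-0.64) were also higher in Src. Toward Myc were Csf1, macrophage colony stimulating factor, at 8.87, 8.85 and 9.57 in the Myc arrays and 7.68, 7.73 and 7.48 in the Src arrays (log2 difference 1.47 ± 0.19, adjusted p = 7.58e-05), and the neutrophil chemokine gene Cxcl2 at 8.97, 9.70 and 9.74 in the Myc arrays and 7.98, 7.87 and 7.76 in the Src arrays (log2 difference 1.60 ± 0.28, adjusted p = 0.000983). The 28 cytokine and chemokine genes, some of them shared with the NF-kB list, gave 4 higher in Myc and 3 in Src. Besides Csf1 and Cxcl2, Il23a, a subunit of interleukin 23, differed by 1.33 ± 0.17 and Cxcl3 by 1.84 ± 0.42 toward Myc (adjusted p = 6.37e-05 and 0.00656). Cx3cl1, fractalkine, was higher in Src (-0.72). Il6 gave 0.17 ± 0.32 (adjusted p = 0.779).

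STAT3 is a transcription factor phosphorylated by the JAK kinases bound to cytokine receptors and also by Src. Of 22 STAT3 target and regulator genes, 8 were higher in Src and 0 in Myc, with a median of -0.14. Osmr, the oncostatin M receptor, read 5.53, 5.35 and 5.22 in the Myc arrays and 7.65, 7.79 and 7.79 in the Src arrays (5.19-fold; log2 difference -2.37 ± 0.21, adjusted p = 2.68e-06), and its partner chain Il6st differed by -0.76 ± 0.11 (adjusted p = 0.000203). Cebpd, an acute phase transcription factor, read 6.12, 6.64 and 6.15 in the Myc arrays and 7.78, 7.54 and 7.68 in the Src arrays (log2 difference -1.36 ± 0.18, adjusted p = 0.000106), and the repressor gene Bcl6 differed by -0.88. The acute phase gene Lcn2 (-0.72) was higher in Src as well. Socs3, the feedback target most often used as a readout, and Stat3 itself gave -0.22 ± 0.08 (adjusted p = 0.0905) and -0.04 ± 0.12 (adjusted p = 0.873).

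Of 25 interferon response genes, 3 were higher in Src (8 in the fit on the 6 arrays alone) and 1 in Myc. Ifit2 (log2 difference -1.44 ± 0.11, adjusted p = 5.91e-07), Mx1 (log2 difference -0.71 ± 0.09, adjusted p = 5.56e-05) and the RNA sensor gene Ddx58 (log2 difference -1.12 ± 0.33, adjusted p = 0.0272) were toward Src, and the last lost its call when any 1 of the 6 arrays was left out (adjusted p up to 0.0852). Bst2, the virus-tethering protein tetherin, was higher in Myc (log2 difference 1.18 ± 0.23, adjusted p = 0.00185). The MHC class I list had 1 of 12 genes higher in Src (Pdia3, -0.31) and 0 in Myc.

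**Figure D3:**
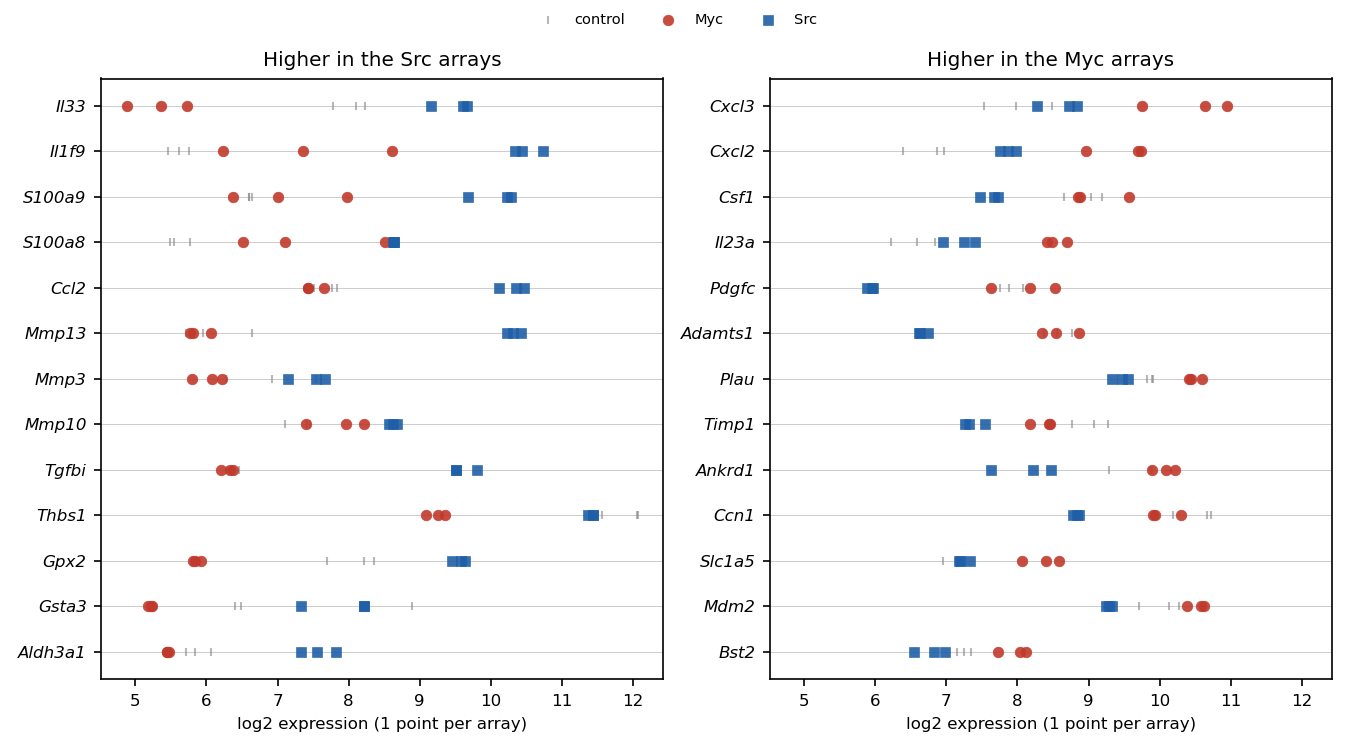
Log2 expression (x axis, 1 point per array) of cytokine, protease, matrix, detoxification and related genes in control, Myc and Src arrays, with genes higher in Src on the left and higher in Myc on the right. Il1f9 spreads from 6.24 to 8.61 within the Myc arrays while its Src arrays lie at 10.34 to 10.74, and Mmp13 separates the groups at 5.78 to 6.06 and 10.23 to 10.43.

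Output genes of the Ras-ERK pathway gave 7 of 24 higher in Src and 3 in Myc. Dusp6, the phosphatase that ERK induces as its own brake, read 6.97, 6.83 and 7.17 in the Myc arrays and 8.62, 8.39 and 8.79 in the Src arrays (log2 difference -1.61 ± 0.12, adjusted p = 6.37e-07). Phlda1 (-0.82), the adaptor genes Spred1 (-0.64) and Spred2 (-0.45) and the ETS factor gene Etv5 (-0.74) were in the same direction, and Myc itself is on this list. The receptor tyrosine kinase gene Epha4 (0.91), Dusp4 (0.46) and Spry1 (0.33) were higher in Myc. Dusp4 lost its call without Myc array 3, Src array 1 or Src array 2 (adjusted p up to 0.118) and missed it on the 6 arrays alone (0.0501). Etv5 lost its call without Myc array 1 or 2 or Src array 1 or 3 (adjusted p up to 0.129). Fosl1, Etv4 and Spry4 did not pass, at -0.10 ± 0.12 (adjusted p = 0.639), 0.07 ± 0.14 (adjusted p = 0.798) and -0.17 ± 0.11 (adjusted p = 0.368). Of 18 AP-1 and immediate early genes, Egr1 was higher in Src (log2 difference -0.88 ± 0.16, adjusted p = 0.00114) and Jund in Myc (0.39). Jun and Fos gave 0.25 ± 0.11 (adjusted p = 0.139) and -0.39 ± 0.14 (adjusted p = 0.0725).

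Among 15 ERBB receptors, ligands and regulators, 3 were higher in Src and 2 in Myc. The ligand genes Nrg1 (log2 difference -1.08 ± 0.19, adjusted p = 0.000922) and Hbegf (log2 difference -0.74 ± 0.12, adjusted p = 0.000621) were higher in Src, and the receptor gene Erbb3, which binds neuregulins, was higher in Myc (log2 difference 0.78 ± 0.17, adjusted p = 0.00552). Lrig1, a negative regulator of these receptors, differed by 0.31. Of 24 other growth factor receptors and ligands, 2 were higher in each group. Fgfr2, the receptor of stromal keratinocyte growth factor in its epithelial form, read 5.13, 5.0 and 5.05 in the Myc arrays and 6.50, 6.55 and 6.55 in the Src arrays (log2 difference -1.47 ± 0.10, adjusted p = 1.09e-07), and Met, the hepatocyte growth factor receptor, differed by -0.80 ± 0.14. Pdgfc, a platelet-derived growth factor, read 8.53, 8.18 and 7.63 in the Myc arrays and 5.88, 5.95 and 5.97 in the Src arrays, a 4.53-fold higher level in Myc (log2 difference 2.18 ± 0.20, adjusted p = 4.14e-06), with Axl the other gene in that direction.

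Cholesterol synthesis was the list with the largest share of members higher in Myc apart from the 3 Y-linked genes. Of 18 genes, 14 were higher in Myc and 0 in Src, with a median of 0.85, and over all alternatives 12 to 16 passed toward Myc. Pmvk, phosphomevalonate kinase, read 8.59, 8.16 and 8.28 in the Myc arrays and 7.09, 6.95 and 7.19 in the Src arrays (2.4-fold; log2 difference 1.26 ± 0.12, adjusted p = 6.54e-06). Insig1, the sterol-responsive retainer of SREBP in the endoplasmic reticulum, read 9.33, 8.97 and 9.07 in the Myc arrays and 7.83, 7.57 and 8.01 in the Src arrays (log2 difference 1.32 ± 0.21, adjusted p = 0.000539). Idi1, which isomerizes the activated isoprene unit, differed by 1.65 ± 0.30, the largest of the list (adjusted p = 0.00143). The later enzymes Cyp51 (1.04), Msmo1 (0.99), Fdps (0.98), Sqle (0.87), Lss (0.85) and Dhcr7 (0.70) were all higher in Myc. Hmgcs1, HMG-CoA synthase, differed by 0.87 ± 0.24, and its call was lost without Myc array 1, Src array 1 or Src array 2 (adjusted p up to 0.0944). Mvk, Ebp, Sc5d and the regulator gene Srebf2 did not pass, at 0.12 ± 0.09 (adjusted p = 0.45), 0.49 ± 0.19 (adjusted p = 0.0895), 0.15 ± 0.14 (adjusted p = 0.557) and 0.30 ± 0.12 (adjusted p = 0.089).

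The E-box CACGTG, the sequence that Myc-Max is known to bind, occurred in 4 of 18 promoter windows of these genes (22.2%, 95% exact binomial interval 6.41 to 47.6) and in 8.24% of all 19177 windows. The 4 are shown with the E-box in capitals, from RefSeq on GRCm38.p6, 5′ to 3′ on the strand of the gene, because 3 belong to genes higher in Myc and 1, Sc5d, to a gene that did not pass.
Insig1, chr5:28071287-28071340, plus strand: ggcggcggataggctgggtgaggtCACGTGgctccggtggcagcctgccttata
Hsd17b7, chr1:169969319-169969372, minus strand: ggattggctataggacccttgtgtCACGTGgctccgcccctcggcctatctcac
Dhcr7, chr7:143823211-143823264, plus strand: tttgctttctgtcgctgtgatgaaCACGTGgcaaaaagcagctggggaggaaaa
Sc5d, chr9:42264369-42264422, minus strand: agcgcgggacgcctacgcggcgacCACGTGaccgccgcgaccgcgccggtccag
The first base of the E-box lay 101, 143, 164 and 98 bases upstream of the start site, in that order. Among called genes the E-box occurred in 31 of 267 windows (11.6%, 8.03 to 16.1) of those higher in Myc and in 31 of 318 (9.75%, 6.72 to 13.6) of those higher in Src, so these shares lay within each other's interval. With no fold minimum the shares were 11.2% (9.89 to 12.5) of 2287 windows higher in Myc and 8.54% (7.19 to 10.0) of 1546 higher in Src, and there each share lay outside the other's interval. In the 250 bases before the start alone, these shares were 8.96% (7.82 to 10.2) and 7.63% (6.36 to 9.07). The Myc share then lay within the Src interval, so the separation depends on the window. The motif is its own reverse complement, so both strands were read, and a match says nothing of binding.

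Fatty acid genes were split. Of 17, 3 were higher in Myc and 2 in Src. Acly, ATP citrate lyase, which supplies acetyl-CoA to both pathways, read 9.69, 9.55 and 9.29 in the Myc arrays and 8.36, 8.25 and 8.38 in the Src arrays (log2 difference 1.18 ± 0.16, adjusted p = 0.000139), and the elongase gene Elovl5 differed by 0.51. The desaturase genes Scd1 (log2 difference -2.42 ± 0.38, adjusted p = 0.000398) and Fads1 (log2 difference -1.21 ± 0.25, adjusted p = 0.00281) were higher in Src, with Scd1 at 4.79, 5.63 and 6.22 in the Myc arrays and 8.25, 7.39 and 8.26 in the Src arrays. Acaca, which encodes the rate-limiting carboxylase, gave 0.43 ± 0.19 (adjusted p = 0.148).

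Many nucleotide, polyamine and one-carbon synthesis genes were higher in Myc, with 15 of 26 passing in that direction and 0 toward Src, and a median of 0.50. Single differences were modest. Impdh1, which commits purines to guanine nucleotides, read 7.26, 7.08 and 7.25 in the Myc arrays and 6.49, 6.49 and 6.25 in the Src arrays (log2 difference 0.79 ± 0.09, adjusted p = 3.19e-05), and Prps1, which makes the ribose donor, differed by 0.75 ± 0.09 (adjusted p = 4.72e-05). Odc1, ornithine decarboxylase, the polyamine enzyme known as a Myc target, read 11.94, 11.94 and 11.88 in the Myc arrays and 11.32, 11.26 and 11.27 in the Src arrays (log2 difference 0.64 ± 0.08, adjusted p = 4.51e-05). Purine enzyme genes Ppat (0.55), Pfas (0.59), Gart (0.41) and Adsl (0.52), the pyrimidine enzyme gene Cad (0.48) and the serine and folate genes Psph (0.76), Shmt2 (0.70), Shmt1 (0.70) and Mthfd2 (1.06) moved with them. Thymidylate and deoxynucleotide genes, Tyms, Tk1, Rrm1 and Rrm2, did not pass, at 0.16 ± 0.08 (adjusted p = 0.222), -0.13 ± 0.09 (adjusted p = 0.409), 0.06 ± 0.15 (adjusted p = 0.86) and 0.04 ± 0.15 (adjusted p = 0.917).

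In ribosome biogenesis 13 of 29 genes were higher in Myc and 1 in Src, with a median of 0.34. Gnl3, the nucleolar GTPase nucleostemin, read 11.22, 11.19 and 11.20 in the Myc arrays and 10.17, 10.20 and 10.11 in the Src arrays (log2 difference 1.04 ± 0.11, adjusted p = 1.74e-05). Polr1b, the second largest subunit of RNA polymerase I, differed by 1.13 ± 0.18 (adjusted p = 0.000422), and the nucleolar gene Nop16 by 0.89 ± 0.11 (adjusted p = 5.21e-05). Bop1 (0.67) and Pes1 (0.53), partners in one complex of large-subunit processing, were both higher in Myc, while the third partner Wdr12 (0.54) lost its call when any 1 of the 6 arrays was left out (adjusted p up to 0.118). Ncl, nucleolin, was the one gene higher in Src (-0.27). Npm1, Fbl and Nop56 did not pass, at -0.13 ± 0.09 (adjusted p = 0.341), 0.03 ± 0.09 (adjusted p = 0.888) and 0.49 ± 0.17 (adjusted p = 0.0606).

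**Figure D4:**
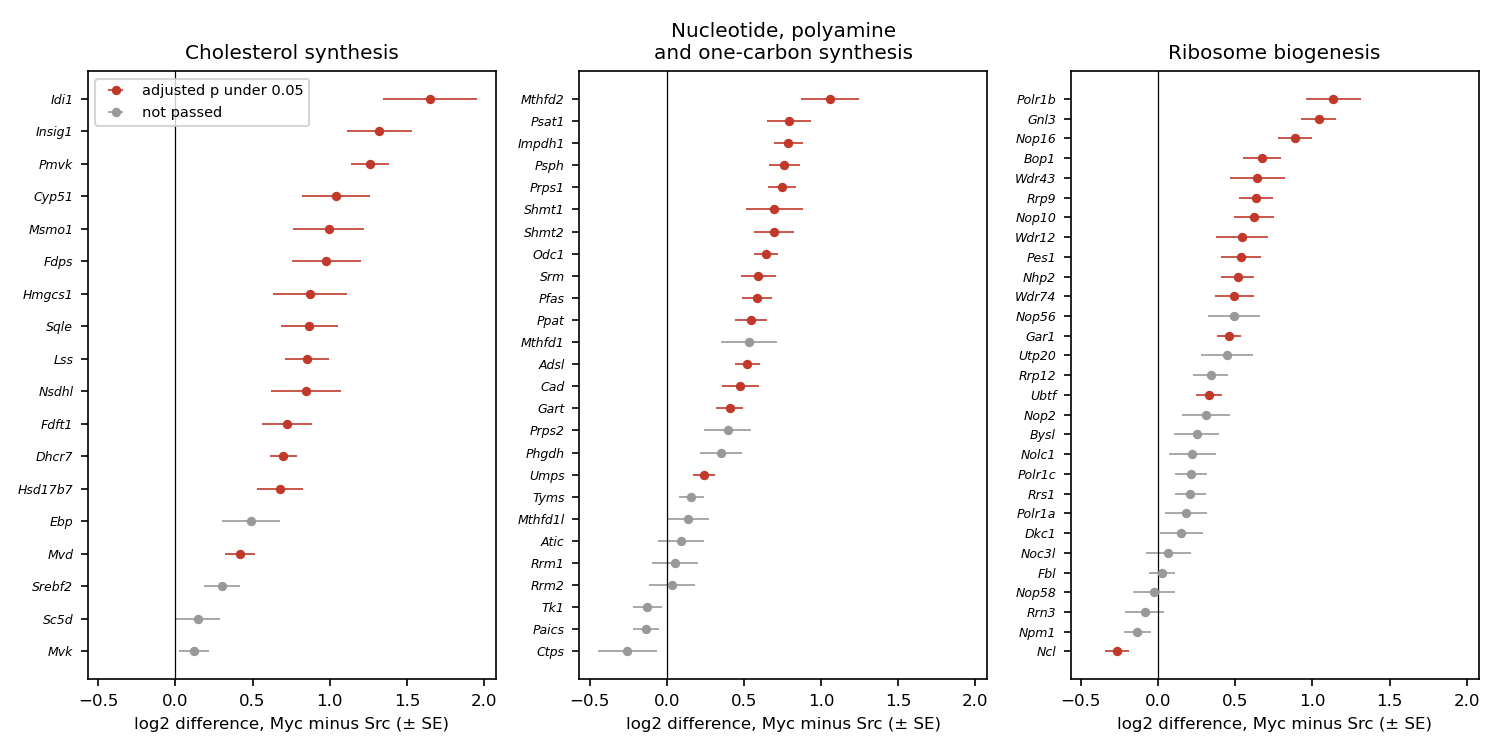
Log2 difference, Myc minus Src, with its standard error (x axis) for each measured gene of cholesterol synthesis, of nucleotide, polyamine and one-carbon synthesis and of ribosome biogenesis (y axis). Red points have an adjusted p under 0.05 and grey points do not; 14 of 18, 15 of 26 and 13 of 29 genes are higher in Myc, and only Ncl, at -0.27, passes toward Src.

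Amino acid stress response genes, the targets of ATF4, gave 11 of 20 higher in Myc and 0 in Src, with a median of 0.39. Slc1a5, the main carrier of neutral amino acids including glutamine, read 8.59, 8.40 and 8.07 in the Myc arrays and 7.19, 7.18 and 7.33 in the Src arrays (log2 difference 1.12 ± 0.13, adjusted p = 3.06e-05). Slc7a5, a leucine carrier, differed by 0.79 ± 0.15, and the serine synthesis gene Psat1, which also stands on the one-carbon list, by 0.79 ± 0.14. Transfer RNA charging genes Gars (0.61) and Wars (0.80), Atf4 itself (0.42), Asns (0.50), Trib3 (0.55) and Chac1 (0.67) were also higher in Myc. The stress factor gene Ddit3 and the cystine carrier gene Slc7a11 gave -0.28 ± 0.14 (adjusted p = 0.186) and -0.98 ± 0.45 (adjusted p = 0.166).

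Among 25 glycolysis and hypoxia genes, 6 were higher in Src and 1 in Myc. Egln3, a hypoxia-induced prolyl hydroxylase, read 6.95, 6.93 and 7.38 in the Myc arrays and 9.35, 9.14 and 9.45 in the Src arrays (log2 difference -2.23 ± 0.18, adjusted p = 1.1e-06), and Pfkp, the platelet form of phosphofructokinase, 6.89, 7.33 and 7.43 in the Myc arrays and 9.21, 8.95 and 9.09 in the Src arrays (log2 difference -1.87 ± 0.19, adjusted p = 9.62e-06). The lactate exporter gene Slc16a3 (-1.13), the collagen hydroxylases P4ha1 (-0.88) and P4ha2 (-0.69) and the glucose carrier gene Slc2a1 (-0.58) followed, and Pfkfb3 (0.29) was higher in Myc. Hk2 and Ldha, glycolytic genes known to respond to Myc, gave 0.03 ± 0.17 (adjusted p = 0.935) and 0.05 ± 0.12 (adjusted p = 0.826). Of 19 oxidative phosphorylation genes, 2 were higher in Myc, Uqcrc1 (0.65) and Sdha (0.56), and 0 in Src. Without control array 3 in the spread, 6 were higher in Myc.

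Several antioxidant genes were higher in Src. In the NRF2 and glutathione list 8 of 19 passed toward Src and 3 toward Myc, with a median of -0.45. Gpx2, an epithelial glutathione peroxidase, read 5.84, 5.93 and 5.81 in the Myc arrays and 9.45, 9.64 and 9.58 in the Src arrays (13-fold; log2 difference -3.70 ± 0.18, adjusted p = 4.85e-09). Aldh3a1, an aldehyde dehydrogenase, read 5.45, 5.47 and 5.45 in the Myc arrays and 7.56, 7.33 and 7.82 in the Src arrays (log2 difference -2.11 ± 0.12, adjusted p = 3.45e-08). Nfe2l2, the gene of NRF2 itself, read 9.70, 9.75 and 9.41 in the Myc arrays and 10.88, 10.72 and 10.93 in the Src arrays (log2 difference -1.22 ± 0.11, adjusted p = 4.3e-06). The glutathione transferase genes Gsta3 (log2 difference -2.71 ± 0.48, adjusted p = 0.00112) and Gsta4 (log2 difference -1.13 ± 0.24, adjusted p = 0.00421) and the quinone reductase gene Nqo1 (-0.85) were in the same direction. Hmox1, heme oxygenase 1, was higher in Myc (log2 difference 0.73 ± 0.14, adjusted p = 0.00164), as were Txnrd1 (0.38) and Tkt (0.46), so the list was not uniform. Keap1, Gclc and Srxn1 gave 0.04 ± 0.12 (adjusted p = 0.899), -0.05 ± 0.20 (adjusted p = 0.921) and -0.05 ± 0.10 (adjusted p = 0.79). Of 10 heat shock genes 3 were higher in Src and 0 in Myc, with the small chaperone gene Hspb1 at 8.21, 7.99 and 8.46 in the Myc arrays and 9.84, 9.80 and 9.83 in the Src arrays (log2 difference -1.60 ± 0.19, adjusted p = 4.72e-05).

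Many mitotic genes were higher in Myc by small steps. Of 24, 11 passed toward Myc and 0 toward Src, with a median of 0.39. Aurka, a kinase of the spindle poles, read 9.89, 9.59 and 9.96 in the Myc arrays and 9.0, 8.92 and 9.21 in the Src arrays (log2 difference 0.77 ± 0.16, adjusted p = 0.0035), and Ccnb2, cyclin B2, 10.20, 9.78 and 9.98 in the Myc arrays and 9.44, 9.05 and 9.43 in the Src arrays (log2 difference 0.68 ± 0.15, adjusted p = 0.00457). Cenpe, a kinetochore motor, differed by 0.68 ± 0.16 and the passenger protein gene Birc5 by 0.42 ± 0.08 (adjusted p = 0.00766 and 0.00245). The count ran from 4 to 14 over the alternatives, with 4 without Myc array 1 and 7 without Src array 2 or after quantile normalization. Bub1b and Plk1 reached adjusted p-values of 0.135 and 0.126 without Myc array 1. Cdk1 and Top2a gave 0.03 ± 0.12 (adjusted p = 0.923) and -0.14 ± 0.15 (adjusted p = 0.594). Of 28 DNA replication genes, 5 were higher in Myc and 1 in Src, at shares of 17.9% and 3.57% beside the all-gene 11.4% and 7.57%. Pola2, the B subunit of DNA polymerase alpha, had the smallest p (log2 difference 0.83 ± 0.14, adjusted p = 0.000954), and the helicase genes Mcm2 and Mcm5 gave -0.19 ± 0.10 (adjusted p = 0.257) and 0.10 ± 0.13 (adjusted p = 0.665).

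Among 19 cyclins, CDKs and their inhibitors, 2 were higher in each group. Rbl1, the pocket protein p107, read 6.96, 6.91 and 6.60 in the Myc arrays and 9.01, 8.95 and 9.07 in the Src arrays (4.56-fold; log2 difference -2.19 ± 0.16, adjusted p = 3.21e-07) and was the one member with a difference above 1 log2 unit. Ccnd1 and Cdkn2a gave -0.32 ± 0.11 (adjusted p = 0.0533) and 0.24 ± 0.17 (adjusted p = 0.386). Of 17 p53 targets, 5 were higher in Myc and 2 in Src. Mdm2, the ubiquitin ligase that p53 induces against itself, read 10.59, 10.62 and 10.38 in the Myc arrays and 9.33, 9.25 and 9.28 in the Src arrays (log2 difference 1.24 ± 0.19, adjusted p = 0.000391), and Zmat3 differed by 0.90 ± 0.17 (adjusted p = 0.00159). The death receptor gene Fas went the other way and read 6.02, 5.73 and 6.2 in the Myc arrays and 7.74, 7.78 and 7.34 in the Src arrays (log2 difference -1.64 ± 0.16, adjusted p = 5.87e-06), with Perp (-0.58), a desmosomal p53 target, also toward Src. Bbc3 and Sesn2 did not pass, at 0.22 ± 0.08 (adjusted p = 0.0718) and 0.08 ± 0.10 (adjusted p = 0.648).

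The Myc network had 3 of 13 genes higher in Myc and 1, Myc itself, in Src. Mxi1, which competes with Myc for Max, read 7.92, 7.68 and 7.57 in the Myc arrays and 6.83, 6.86 and 6.80 in the Src arrays (log2 difference 0.90 ± 0.10, adjusted p = 1.6e-05), and Max differed by 0.41 ± 0.09 (adjusted p = 0.00701). The smallest of the 3, Mlxip (0.36), lost its call without Myc array 1 or 2 or any Src array (adjusted p up to 0.183). Mycn and Mycl gave -0.24 ± 0.13 (adjusted p = 0.249) and -0.25 ± 0.14 (adjusted p = 0.25). Of 13 oncofetal genes, 1 was higher in Src (Plagl1, -0.41) and 0 in Myc. Of 15 BEX and ARMCX family genes, 3 were higher in Src and 0 in Myc, with Tceal8 (log2 difference -1.29 ± 0.16, adjusted p = 5.04e-05) the largest that passed.

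**Figure D5:**
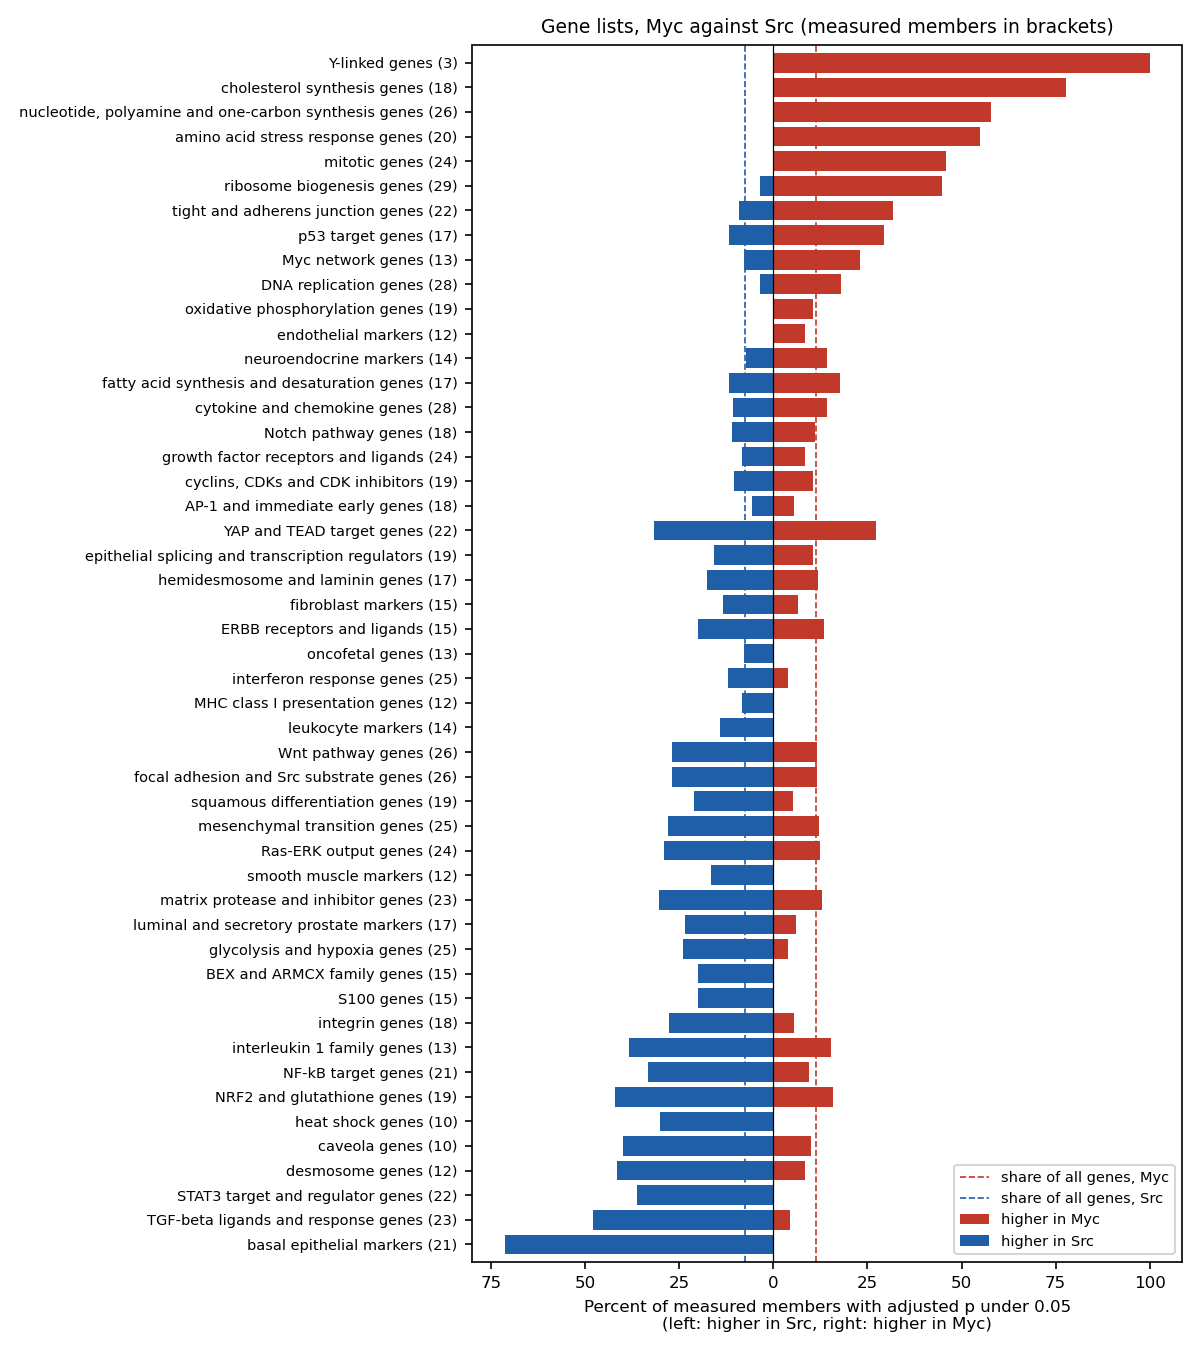
Percent of the measured members of each of the 49 gene lists with an adjusted p under 0.05, higher in Src to the left and higher in Myc to the right, with the number measured in brackets and dashed lines at the shares of all genes (7.57% and 11.4%). Cholesterol synthesis (77.8% higher in Myc) and the 3 Y-linked genes stand at the Myc end and basal epithelial markers (71.4% higher in Src) at the Src end.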

How the data were processed

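Biotin-labelled total RNA, amplified with the WT-Ovation Pico system per the labels' protocols, was measured on 15 arrays. The deposited values are on a log2 scale and had been normalized over the arrays when the authors deposited them. The submitters' processing notes list RMA and Affymetrix Expression Console 1.1. The genome build is not given in the sources used here.

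Of 35556 probe sets, 21789 belonged to 1 gene, 1621 to several and 12146 to none in the platform annotation. For the 999 genes with several probe sets of their own, the brightest on average was used. The contrast came from limma 3.58.1 (lmFit and eBayes, R 4.3.3) on 5 group means of all 15 arrays, with two-sided p-values adjusted by Benjamini-Hochberg over 19938 genes. A called gene had an adjusted p under 0.05 and differed 2-fold or more, and list members counted at an adjusted p under 0.05. No filter on low values was applied. The 49 lists, with 917 of 979 entries measured, were described by counts and medians. The members and lists were chosen with earlier results of these data known. Named genes were the 12 largest non-overlapping differences per direction whose higher mean reached the median level, the transduced genes, and list members: the 4 with the smallest p, those of the opposite direction and others. The family tallies and members that did not pass were picked for display after values were seen. The fit was also run on simulated data with 200 changed genes. The simulated noise was independent and normal, with no outlying array and no shared line effects, so the run checks the code and not these samples. Promoter windows of 300 bases came from RefSeq for 15614 of the genes. The number of arrays limits the precision.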

Additional observations from a re-analysis of the deposited data

Results flagged for a closer look

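Probe sets that the platform annotation gives to several genes or to none take part in no comparison above, and some of them differed between Myc and Src by the same rule (limma, adjusted p under 0.05, 2-fold or more). Of the 1621 probe sets with several genes, 21 (1.3%) were called, 13 higher in Myc and 8 higher in Src. Of the 12146 probe sets with no gene, 186 (1.53%) were called, 118 higher in Myc and 68 higher in Src. Of the 21789 probe sets with 1 gene, 656 (3.01%) were called, 307 higher in Myc and 349 higher in Src. The source of the signal in the unassigned probe sets was not tested. For these probe sets, groups of 3 arrays were not examined for single outlying values.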

How the results depend on the processing

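The fold minimum changed the counts most. With none, 2268 genes were higher in Myc and 1509 higher in Src (3777 in all), and with a minimum of 4-fold 37 and 110 (147 in all), against 273 and 346 (619 in all) at 2-fold. Leaving out each of the 6 arrays in turn gave 253 to 287 genes higher in Myc and 328 to 349 higher in Src. Median centring gave 303 and 327, quantile normalization 236 and 362, and only genes at or above the median level 239 and 269. The fit on the 6 Myc and Src arrays gave 280 and 360. Myc and Src replicate numbers did not pair the arrays: residuals of same-numbered arrays correlated at 0.05, 0.07 and -0.03. With the replicate number as a block, 273 and 346 genes (619) were called on 15 arrays and 280 and 360 (640) on 6. For 317 genes examined one by one, 313 of them past the threshold, 81 lost the call under at least 1 alternative and the 24 largest kept call and direction in all 409 values. Losses were most frequent when an array was left out, from 35 genes (Myc replicate 3) to 66 (Myc replicate 1). Among genes named for small differences, Pfkfb3, Tkt, Txnrd1, Ptk2b, Itgb1, Rnf43, Twist2, Lrig1 and Ncl each lost the call in 5 to 9 alternatives, and Asns, Axin2, Pdia3, Tns3, Cd9, Sdha, Shmt1, Tgfb3, Cad, Plagl1, Slc2a1, Zyx, Itga5, S100a11, Sh3pxd2b and Spry1 in 1 to 4. On the 6 arrays alone, glycolysis and hypoxia genes higher in Src rose from 6 to 10 and integrin genes from 5 to 8. With array weights, p53 targets higher in Myc rose from 5 to 8 and cytokine and chemokine genes from 4 to 7, and with only genes at or above the median level the NRF2 and glutathione genes higher in Src numbered 5 in place of 8. Direction changed in 3 values of 2 genes that did not pass. Erbb2 was -0.0181 under quantile normalization (adjusted p = 0.962), and Src was 0.0055 after median centring (adjusted p = 0.984) and ran from -0.0782 to 0.0216 when each array was left out, above 0 without Myc replicate 2 (adjusted p = 0.93). The causes were not tested. The sign of the median changed among alternatives for 10 lists, each within 0.1 of 0 in the fit as reported apart from the epithelial regulators (0.10). Background was not measured, so low levels limit the size of differences.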
